A study of Mus musculus with 4 samples.

Results

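Messenger RNA levels of 9 interferon signalling genes were followed in MC38/gp100 cells, a mouse colon carcinoma line named for the melanocyte antigen gp100. The genes were taken by name from the deposited table: the receptor chains Ifngr1 and Ifngr2, the kinase Jak1, the transcription factors Stat2 and Irf9, and the interferon regulatory factors Irf1, Irf2, Irf3 and Irf7. They are 9 of 12578 genes with values. Cells grew in serum-containing medium and were exposed for 5 days to the solvent DMSO or to 1 µM GSK3368712, which blocks the type I enzymes that methylate arginines of proteins. Each group has 2 libraries, called A and B. Separate cultures are not stated for them, so p-values measure only spread between libraries, which may be technical. The p-values also lean on the spread shared across genes. In bulk RNA, fewer cells of a type and less RNA per cell cannot be told apart.

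Interferons act through paired receptor chains that carry Janus kinases. Interferon gamma binds IFNGR1 and IFNGR2, which carry JAK1 and JAK2, and its signal ends at gamma-activated sites (GAS) in the DNA. Type I interferons signal through the complex ISGF3, which contains STAT2 and IRF9 and binds interferon-stimulated response elements (ISRE). IRF1 activates many of the same genes and IRF2 can oppose it, while IRF3 and IRF7 switch on interferon genes after viral or cytosolic nucleic acids are sensed. Tumour cells depend on this pathway to raise antigen presentation when T cells release interferon gamma.

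Values are normalised reads, that is whole reads per gene worked back from the deposited base means (the mean over libraries of reads divided by a size factor) and divided by the library's size factor. The recovered reads came to between 968908 and 1065700 per library. With the few genes that had no single solution, whose reads were estimated from the deposited log2 values, they came to between 1079810 and 1176172. Base means of the 9 genes ran from 17.4 to 140, against a median of 22.6 over all genes with values, so counting error is wide for the lowest. Log2 fold changes are of inhibitor over DMSO on log2 of normalised reads plus 1, a scale that understates changes of low genes, with the standard error (SE). Adjusted p-values come from limma on the deposited log2 values over the 8562 genes whose base mean was 10 or more, and all 9 members reached that minimum. Per the labels the library kit keeps strand, but no source used here gives the strand setting with which the authors counted. Where exons of 2 genes lie opposite each other, it is therefore not known at which gene reads in the shared bases were counted. Nor is it known whether reads of the other strand were counted at a gene, with or without such a partner. How far this reaches into each gene's value was not tested. Of all genes with values 33.5% have an exon opposite another gene, and they hold 59.4% of the summed base mean. Partners on the opposite strand are given beside the genes named.

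The transcripts of Irf1, Irf3, Irf7, Ifngr1 and Jak1 had higher values in both inhibitor libraries than in both DMSO libraries, while Stat2, Irf9, Irf2 and Ifngr2 overlapped between groups. None of the 9 passed the test across all genes (limma, adjusted p under 0.05), where 2.14% of tested genes passed, 1.3% as higher and 0.841% as lower. The voom fits called none of them either. At an unadjusted p under 0.05 there were 4 of 9 (Irf1, Irf3, Irf7 and Ifngr1), against 12.2% of all tested genes. Inhibitor libraries lay above both DMSO libraries in 5 of 9 members and below in 0, against 20.7% and 20.5% of all tested genes (41.2% without overlap in either direction). The log2 fold change was positive in 7 of 9 (50.8% of all tested genes), and its median was 0.17 against 0.01 over all tested genes. Members were chosen with earlier results of these data known, so these shares are not independent evidence. In the authors' deposited table an adjusted p was given for 6 members, none below 0.9997 (DESeq2), while 0.574% of all genes with an adjusted p passed there.

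**Figure D1:**
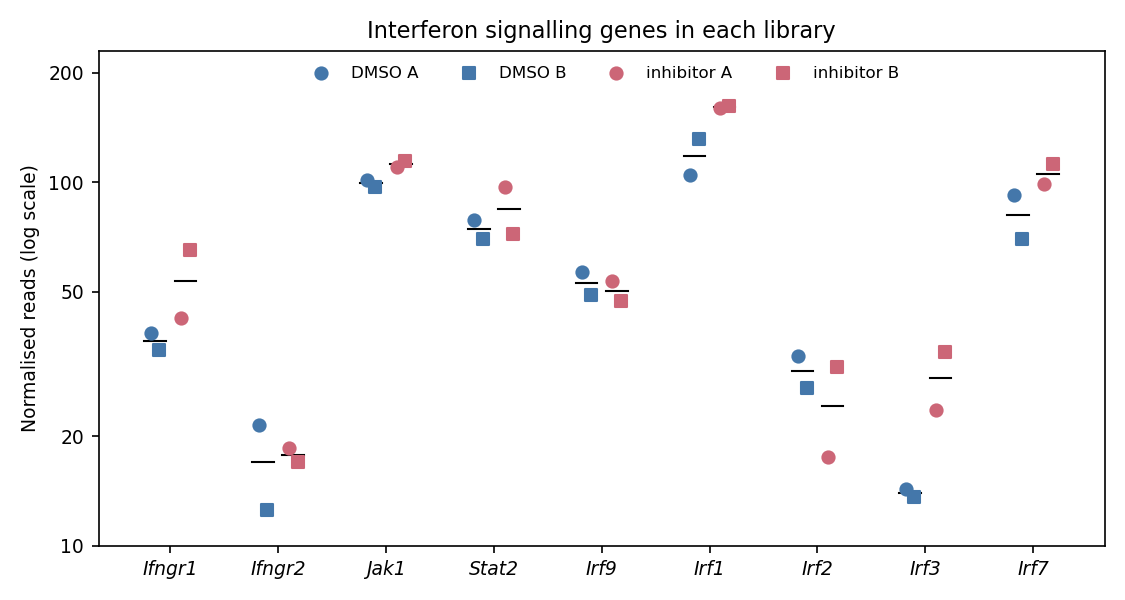
Normalised reads (vertical axis, log scale) of the 9 genes in each library, DMSO in blue and inhibitor in red, with circles for library A, squares for library B and black lines for group means. Irf1, Irf3, Irf7, Ifngr1 and Jak1 have no overlap between groups, and Irf3, Irf2 and Ifngr2 lie at or below 34.1 reads.

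Ifngr1 encodes the ligand-binding chain of the interferon gamma receptor (ENSMUSG00000020009.12, mm10 chromosome 10, 19591949 to 19610229, plus strand). It held 38.6 and 34.4 normalised reads in DMSO A and B, and 42.2 and 65.1 in inhibitor A and B. Only inhibitor B stood well above the DMSO libraries. The difference, 0.51 ± 0.24 (SE) on the log2 scale, fell short of the threshold (limma, adjusted p = 0.32). Its 95% interval ran from 0.04 to 0.98. Without inhibitor B the log2 fold change was 0.21.

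Ifngr2, the second receptor chain, which brings JAK2 (ENSMUSG00000022965.7, chromosome 16, 91547072 to 91565623, plus strand), had 21.5 and 12.5 normalised reads in the DMSO libraries, and 18.5 and 17.0 in the inhibitor libraries. The DMSO libraries alone spanned a ratio of 1.72, with 24 and 12 counted reads, and both inhibitor values lay between them. Those counts have exact Poisson 95% intervals of 15.4 to 35.7 and 6.20 to 21, which cover counting error only. The log2 fold change was 0.10 ± 0.37, with a 95% interval from -0.64 to 0.84, so a change of moderate size in either direction was not detectable at this depth (limma, adjusted p = 0.98). Per kilobase of exons, Ifngr1 stood above Ifngr2 in every library, by 2.37 and 3.64 times in DMSO and 3.01 and 5.06 times with the inhibitor.

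Jak1, the tyrosine kinase shared by type I and type II interferon receptors (ENSMUSG00000028530.14, chromosome 4, 101152367 to 101265282, minus strand), had 101 and 97.1 normalised reads in the DMSO libraries, and 110 and 114 in the inhibitor libraries. The groups did not overlap, but their means differed by a ratio of 1.13 and the difference did not pass (log2 fold change 0.17 ± 0.17; limma, adjusted p = 0.77). Its 95% interval ran from -0.16 to 0.51. Jak1 shares 4 exon bases with Raver2 on the other strand, which held between 0 and 15 normalised reads.

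Stat2, the STAT specific to type I and type III interferon signals (ENSMUSG00000040033.16, chromosome 10, 128270559 to 128292849, plus strand), had 78.9 and 69.9 normalised reads in the DMSO libraries, and 96.7 and 72.1 in the inhibitor libraries. Inhibitor B lay between the DMSO libraries. Stat2 differed by 0.17 ± 0.19 (log2) and did not pass (adjusted p = 0.80 in limma), and without inhibitor A the difference was -0.04. Irf9, the DNA-binding subunit of ISGF3 (ENSMUSG00000002325.14, chromosome 14, 55603571 to 55610030, plus strand), held 56.5 and 49.1 reads in DMSO and 53.5 and 47.1 with the inhibitor. Its groups overlapped in part, at -0.07 ± 0.22 on the log2 scale with a 95% interval from -0.50 to 0.37 (limma, adjusted p = 0.95). Irf9 shares 123 exon bases with Rnf31 on the same strand, which held 20.9 ± 2.92 reads in DMSO and 20.3 ± 3.92 with the inhibitor (SD, n = 2).

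**Figure D2:**
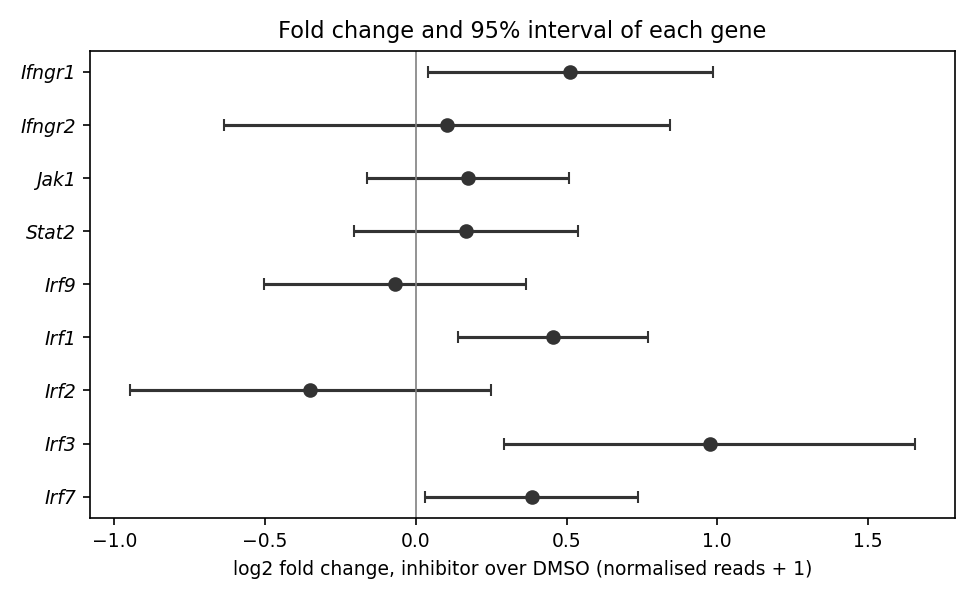
Log2 fold change of each gene (horizontal axis, inhibitor over DMSO, on normalised reads plus 1) with its 95% interval from limma as bars, over 2 libraries per group. The intervals of Irf1, Irf3, Irf7 and Ifngr1 lie above 0 before adjustment for the number of genes tested, and those of Ifngr2 and Irf2 are wide.

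Irf1 is an activating factor that is induced early after interferon gamma (ENSMUSG00000018899.16, chromosome 11, 53770014 to 53778374, plus strand). It had 105 and 132 normalised reads in the DMSO libraries, and 160 and 162 in the inhibitor libraries. The inhibitor libraries nearly coincided, and the gap between the DMSO libraries was about as wide as that from DMSO B to either of them. Irf1 differed by 0.45 ± 0.16 on the log2 scale, with a 95% interval from 0.14 to 0.77, which fell short of the threshold (limma, adjusted p = 0.12). With DMSO B left out it passed (log2 fold change 0.62; limma, adjusted p = 0.035), and without DMSO A it was 0.29. Such a fit leaves 1 DMSO library, which is assumed to vary like the other group and the genes at large.

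The single exon of Gm17334, a predicted protein-coding gene on the minus strand (ENSMUSG00000091191.1, chromosome 11, 53772281 to 53773187), lies within Irf1. It overlaps 135 bases of Irf1 exons, 100 of them coding. More reads were counted at Gm17334 than at Irf1 in every library: 723 and 894 normalised reads in DMSO and 1183 and 1171 with the inhibitor. Gm17334 passed the test (log2 fold change 0.55 ± 0.13; limma, adjusted p = 0.0061), and in the authors' deposited table its log2 fold change was 0.54 (DESeq2, adjusted p = 0.022). Without inhibitor A or B it no longer passed (limma, adjusted p = 0.36 and 0.34), nor with no abundance minimum (0.20), while its log2 fold change there was 0.54, 0.56 and 0.55. Gm17334 is named by rule, as the opposite-strand partner of a member. It was the only such partner that passed, and it was followed further than the others. Its values under other settings were not planned.

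The low and high libraries were the same at both genes, DMSO A lowest and the inhibitor libraries highest and close together. Of the reads at the pair, Irf1 held 12.7% (exact binomial 95% interval 10.6 to 15) in DMSO A, 12.8% (10.8 to 15.1) in DMSO B, 11.9% (10.2 to 13.8) in inhibitor A and 12.2% (10.5 to 14) in inhibitor B. Both inhibitor shares lay slightly below both DMSO shares. The intervals overlap and cover counting error only, and a difference in the split was not tested. Per kilobase of exons, Gm17334 stood 29.8 to 32.3 times above Irf1. Which transcript the reads at Gm17334 came from was not tested, and the values at Irf1 are uncertain for the same reason. The shared coding bases are exon 3 of an Irf1 transcript with 10 exons, chr11:53772839-53772938 (mm10, plus strand), shown because reads from this stretch can belong to either gene. They are read here from the GENCODE M21 transcripts, 5′ to 3′ on the Irf1 strand. They encode part of the DNA-binding domain, which in interferon regulatory factors is marked by repeated tryptophans, and capitals mark the 3 in-frame tryptophan codons.
Irf1 exon 3: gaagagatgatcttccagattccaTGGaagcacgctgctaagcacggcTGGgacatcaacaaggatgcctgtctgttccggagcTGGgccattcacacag

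**Figure D3:**
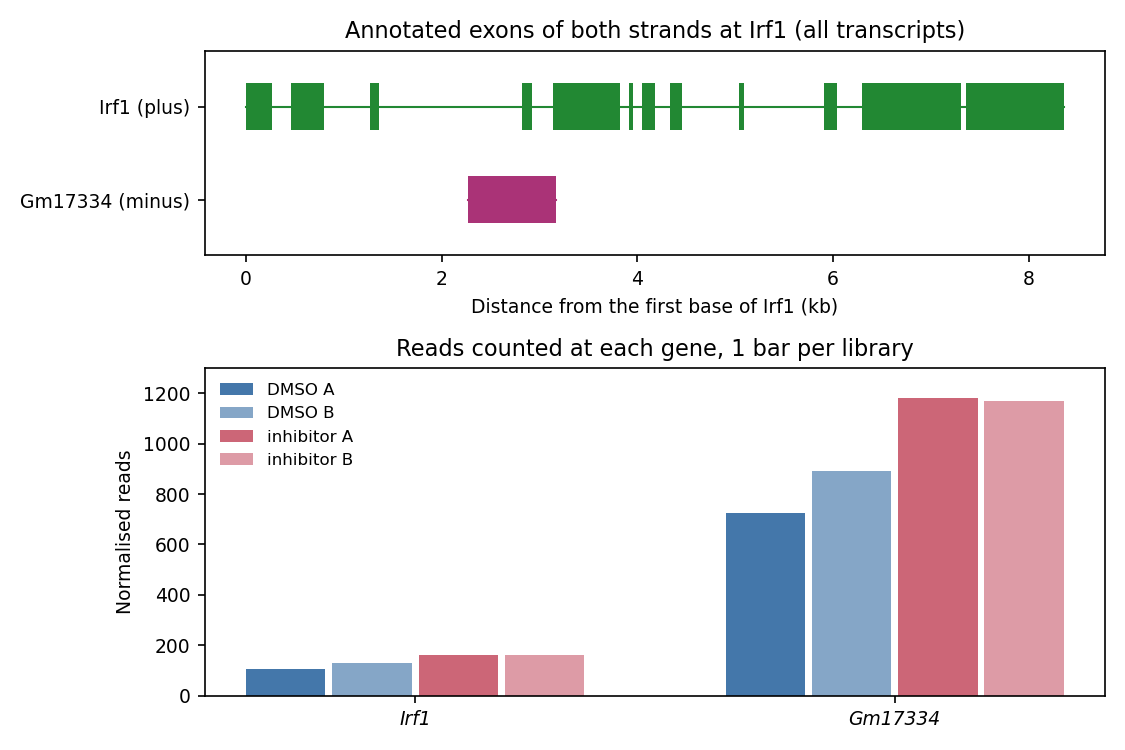
Top, annotated exons of all Irf1 transcripts (plus strand) and of Gm17334 (minus strand) against the distance in kilobases from the first base of Irf1. Bottom, normalised reads counted at each gene, 1 bar per library, with no error bars: Gm17334 holds 723 to 1183 and Irf1 105 to 162.

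Irf2, which binds the same DNA sites as Irf1 and can repress them (ENSMUSG00000031627.9, chromosome 8, 46739732 to 46847458, plus strand), had 33.2 and 27.1 normalised reads in the DMSO libraries, and 17.5 and 31.0 in the inhibitor libraries. The groups overlapped, and inhibitor A alone was low, at 17 counted reads. Irf2 differed by -0.35 ± 0.30 (log2) and did not pass (adjusted p = 0.77 in limma), and without inhibitor A the difference was 0.05. The ratio of Irf1 to Irf2, each per kilobase of exons, was 5.88 and 9.01 in DMSO and 17.1 and 9.72 with the inhibitor. The highest of these ratios rests on those 17 reads, and inhibitor B lay close to DMSO B.

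Irf3, the constitutive factor that is activated by phosphorylation after nucleic acid sensing (ENSMUSG00000003184.15, chromosome 7, 44997648 to 45002848, plus strand), had the largest fold change of the 9. It had 14.4 and 13.6 normalised reads in the DMSO libraries, and 23.7 and 34.1 in the inhibitor libraries, from 16, 13, 23 and 34 counted reads. Both inhibitor libraries were above both DMSO libraries, and the means differed by a ratio of 2.07. On the log2 scale this was 0.98 ± 0.35, with a 95% interval from 0.29 to 1.66, and fell short of the threshold (limma, adjusted p = 0.12). Leaving out 1 library moved it between 0.72 (without inhibitor B) and 1.23 (without inhibitor A). Irf3 shares 88 exon bases with Bcl2l12 on the other strand, a gene with 8.73 ± 0.93 reads in DMSO and 7.65 ± 3.73 with the inhibitor (SD, n = 2).

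Irf7, the interferon-inducible factor that amplifies type I interferon production (ENSMUSG00000025498.15, chromosome 7, 141262706 to 141266481, minus strand), had 92.4 and 69.9 normalised reads in the DMSO libraries, and 98.8 and 112 in the inhibitor libraries. The groups did not overlap, although DMSO A lay nearer to inhibitor A than to DMSO B. Its log2 fold change was 0.38 ± 0.18, with a 95% interval from 0.03 to 0.74 (limma, adjusted p = 0.36), and without DMSO B it was 0.19. Irf7 shares 45 exon bases with Phrf1 on the other strand, which held 116 ± 7.59 reads in DMSO and 119 ± 10.9 with the inhibitor (SD, n = 2; log2 fold change 0.04 ± 0.17; limma, adjusted p = 0.96).

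Levels of different genes were compared per kilobase of merged exons. Merged exons pool all annotated transcripts of a gene, so this length can exceed that of its mRNA. For Irf7 it is 3776 bases, which covers the whole locus. The order of genes and the ratios per kilobase given above depend on this length, and other lengths were not tried. In the DMSO libraries Irf1 was highest with 29.7 ± 4.72 normalised reads per kilobase (SD, n = 2), followed by Irf7 with 21.5 ± 4.21. Jak1 (13.7 ± 0.42), Ifngr1 (12.8 ± 1.0) and Stat2 (12.6 ± 1.08) came next, and the libraries of neighbours in that order overlapped. Irf9 was lower, at 9.80 ± 0.98 per kilobase. Ifngr2 (4.52 ± 1.69), Irf2 (4.08 ± 0.58) and Irf3 (4.06 ± 0.16) were lowest and overlapped one another. With the inhibitor Irf3 reached 6.87 and 9.89 per kilobase, above both values of Ifngr2 (4.92 and 4.52) and of Irf2 (2.36 and 4.2).

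**Figure D4:**
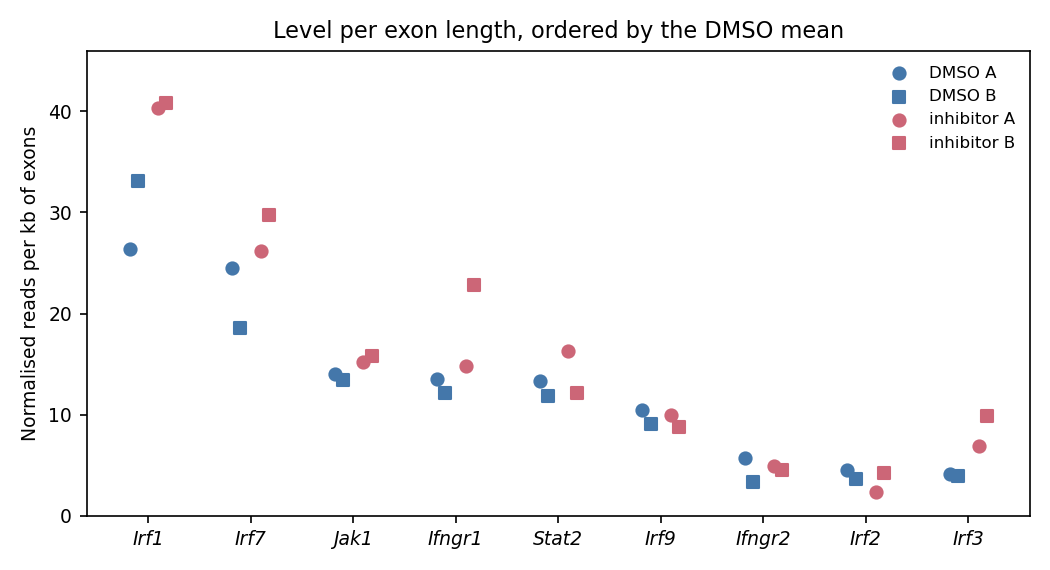
Normalised reads per kilobase of merged exons (vertical axis, linear) in each library, genes ordered by their DMSO mean, with DMSO in blue, inhibitor in red, circles for library A and squares for B. Irf1 and Irf7 lead. Irf3 has the lowest DMSO mean, with 4.17 in A and 3.94 in B, but its DMSO libraries overlap those of Irf2 and Ifngr2.

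The promoters of these genes were searched for the letters of the GAS, TTCNNNGAA, and of an ISRE core, GAAANNGAA, on both strands. RefSeq windows (GRCm38.p6) from 250 bases before to 50 after a start were at hand for all 9 members, 11 windows in all since Irf1 and Irf9 have 2 each. The GAS letters were in 2 of the 11, those of Irf1 and Irf2, against 8.30% of 32851 windows of all genes. The ISRE letters were in 2, those of Irf2 and Stat2, against 8.56%. The match in Irf1 lies 90 to 82 bases before the start, and those in Irf2 lie 241 to 233 (ISRE) and 224 to 216 bases (GAS) before it. The Stat2 match, read on the minus strand, lies 221 to 213 bases before the start. No match of the ISRE letters overlaps one of the GAS letters. The stretches are shown because these letters are known response elements of interferon signalling, the ISRE being bound by ISGF3 and IRF proteins. They lie at chr11:53769902-53769954 (Irf1), chr8:46739495-46739551 (Irf2) and chr10:128270255-128270307 (Stat2), all on the plus strand and 5′ to 3′, with the matched letters in capitals.
Irf1: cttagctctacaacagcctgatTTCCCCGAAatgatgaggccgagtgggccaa
Irf2: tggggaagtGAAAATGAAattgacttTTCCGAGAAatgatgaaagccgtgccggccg
Stat2: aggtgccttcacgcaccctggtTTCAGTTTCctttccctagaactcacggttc

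Beside the values above, Irf1, with a GAS match, did not overlap between groups. Irf2, with a GAS and an ISRE match, and Stat2, with an ISRE match, did overlap. Of the members without a match, Irf3, Irf7, Ifngr1 and Jak1 did not overlap, and Irf9 and Ifngr2 did. Over all tested genes 41.2% did not overlap, and a link between matches and values was not tested. A match describes the letters of the window and not a bound site, and windows without one say nothing about these factors.

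Of 55 listed names of further pathway genes 44 had values and 36 reached the abundance minimum, and 0 rose and 0 fell (limma, adjusted p under 0.05). The voom fits and the authors' deposited table (DESeq2) also called 0, and 3 had an unadjusted p under 0.05, against 12.2% of all tested genes. Their median log2 fold change was 0.00, with 18 of 36 positive, 5 higher and 6 lower in both inhibitor libraries than in both DMSO libraries. Over all tested genes those shares were 50.8%, 20.7% and 20.5%. The list was chosen with earlier results of these data known. Its names without values include synonyms of listed genes: Sting1 for Tmem173, Cgas for Mb21d1 and Rigi for Ddx58.

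Jak2, the second kinase of the interferon gamma receptor, held 26.9 ± 2.59 reads in DMSO and 22.3 ± 0.43 with the inhibitor (SD, n = 2), and its log2 difference of -0.25 ± 0.31 did not pass (adjusted p = 0.83 in limma). Tyk2 (opposite 1700084C06Rik), the kinase of the type I receptor, had a log2 fold change of -0.04 ± 0.36, and the receptor chains Ifnar1 and Ifnar2 had -0.17 ± 0.29 and -0.33 ± 0.34. The feedback inhibitors Socs1 and Socs3 had 0.29 ± 0.41 and -0.57 ± 0.29. None of these passed (limma, adjusted p from 0.40 for Socs3 to 0.98 for Tyk2). Jak2 and Socs3 were lower in both inhibitor libraries than in both DMSO libraries, as were 20.5% of all tested genes. Tyk2, Ifnar1, Ifnar2 and Socs1 overlapped between groups.

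By group, the median log2 fold change was -0.21 over 4 tested receptors and kinases, -0.05 over 6 STATs and IRFs, 0.11 over 11 negative regulators and 0.01 over 12 sensors and adaptors. Interferon ligands were barely counted: of 7 listed, only Ifnb1 had values, 0.90 and 0 in DMSO and 0 and 1.00 with the inhibitor. Among the remaining IRFs, Irf5 held 711 ± 92.4 reads in DMSO and 707 ± 6.63 with the inhibitor (SD, n = 2), but it lies opposite Tnpo3. Irf4 and Irf8 were below the abundance minimum. These IRFs, Ifnb1 and Rnf31 were singled out after their values were seen.

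Of 44 tested target genes of the pathway 3 rose and 0 fell (limma, adjusted p under 0.05). All 3 were listed as interferon gamma type: Gbp2 (opposite Mir6381), Gbp7 and Cxcl10 (opposite Art3). The listed types overlap in biology, so the split of calls between them does not tell interferon types apart. Over all tested genes 1.3% rose and 0.841% fell, and 50.8% had a positive log2 fold change. It was positive in 17 of 19 tested interferon gamma type targets, with a median of 0.37, and in 21 of 25 tested ISGF3 type targets, with a median of 0.19. Gbp2 alone kept its call without inhibitor B, with no abundance minimum and in the authors' deposited table. These targets were known to be higher when the list was made, so their direction is not independent evidence.

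**Figure D5:**
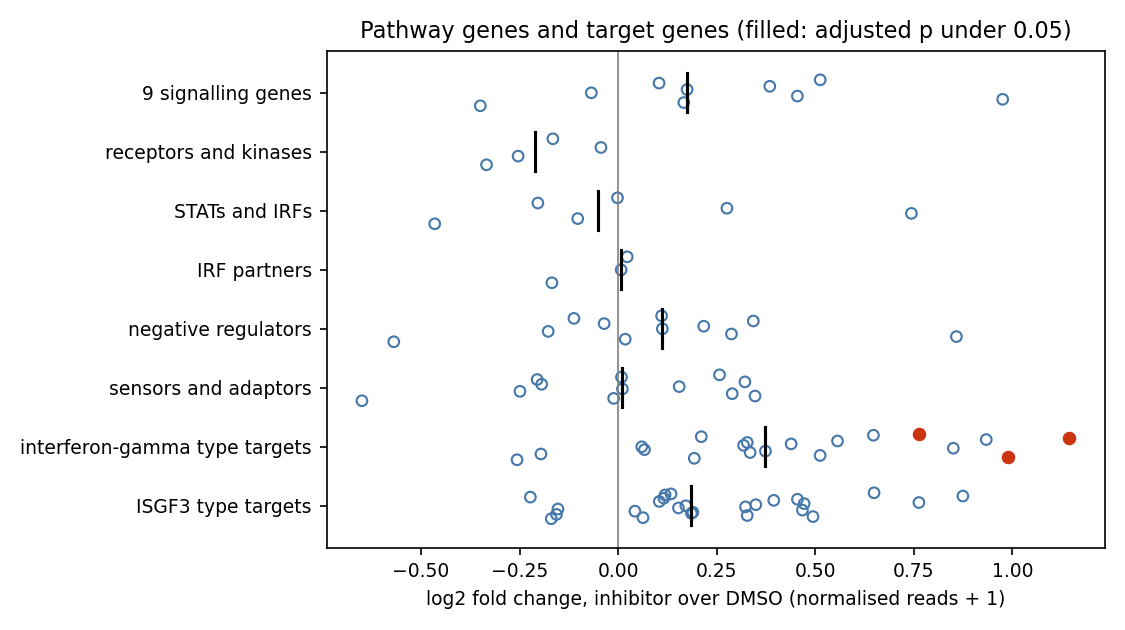
Log2 fold change (horizontal axis, inhibitor over DMSO, on normalised reads plus 1) of each tested gene, by list, with vertical bars at the medians and filled red points for genes with a limma adjusted p under 0.05. The 9 signalling genes have a median of 0.17, the interferon gamma type targets of 0.37, and the 3 filled points are Cxcl10, Gbp7 and Gbp2.

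The member with the smallest p was Irf3, and the 3 genes of base mean 100 or more whose log2 profiles over the 4 libraries lay nearest to it were Col5a3, Vgf and Nemf (opposite Klhdc2), out of 2033. Their distances were 0.33, 0.37 and 0.38 on the log2 scale. For Irf1 the 3 nearest by the same measure were Exosc9 (opposite Ccna2), Abi3 (opposite Zfp652, Phospho1 and Gngt2) and Rccd1 (opposite Prc1). These lay at distances of 0.04 to 0.05, and Gm17334 ranked 12 of 2032 with a distance of 0.10. Such likeness over 4 libraries is a description.

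Cell type markers were also read. Of 4 listed melanocyte markers Pmel alone had values, and whether its reads bear on the line's name was not tested. Pmel encodes gp100 and lies opposite Dgka and Cdk2. It had 29.3 ± 5.86 normalised reads in the DMSO libraries and 31.4 ± 5.14 in the inhibitor libraries (SD, n = 2). Of 5 epithelial markers Krt8 (opposite Gm36026) alone reached the abundance minimum, and none of 5 leukocyte or 3 endothelial markers did. The 5 fibroblast markers all reached it and did not move as 1 group. Col3a1 rose (165 to 321 normalised reads on average; limma, adjusted p = 1.5e-07) and Col1a1 was higher in both inhibitor libraries without passing (528 to 714; limma, adjusted p = 0.057). Pdgfra (opposite Gm42802 and Gm42803) was lower in both without passing (68.8 to 47.6; log2 fold change -0.53 ± 0.21; limma, adjusted p = 0.23), and Dcn and Pdgfrb overlapped between groups. Most of the markers' reads were at the 2 collagens, and their summed normalised reads ran from 860 to 872 in the DMSO libraries and from 1142 to 1261 in the inhibitor libraries. Leukocyte markers summed to 8.07 to 14.6 in DMSO and to 5.01 to 8.23 with the inhibitor, all of it at Cd68. The part of these markers in the values of the signalling genes was not tested.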

How the data were processed

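Per the labels' protocols, a strand-keeping mRNA kit was used on total RNA. HISAT2 2.1.0, SAMtools 1.2, StringTie 1.3.0, DESeq2 and build mm10 are named without roles, per the submitters' processing notes. The authors deposited 1 table of 51826 genes, 12578 with values. Per the file headers it holds log2 values per library (named logCPM, here read as regularised log2 normalised counts: for Irf2 they span only 4.69 to 4.81 where recovered normalised reads span 17.5 to 33.2), the base mean (a signal), and DESeq2's log2 fold change with its error, Wald score, p-value and adjusted p-value. Columns give the group and a letter, not the labels' replicate number.

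Size factors (0.958 to 1.11) came from the lowest base means, and whole reads were searched that give each base mean to its printed precision. A single solution was found for 12570 genes. Up to a base mean of 250, members included, every placement of reads was searched (11762 genes). The test was limma 3.58.1 (R 4.3.3) with a trend, two-sided, on the deposited log2 values of genes whose base mean was 10 or more. Group was its single term and adjustment was by Benjamini-Hochberg. With 182 prior and 2 residual degrees of freedom, p-values and intervals lean on the spread shared across genes. Effect sizes and intervals are from a second limma fit, to recovered normalised reads on the log2 scale with a pseudocount of 1 (8554 genes). This second fit and the read search were run on simulated data. The fit to the deposited log2 values, which gives the adjusted p-values, and the voom fits were not.

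Members, lists and the abundance minimum were chosen with earlier results of these data known. By rule, named genes are all members, their opposite-strand exon partners, Pmel, pathway genes that passed (there were none), the members' direct partners, the 3 nearest profiles of the member with the smallest p, and up to 4 called targets. Irf4, Irf5, Irf8, Ifnb1, Rnf31, Psmb10, Exosc9, Abi3 and Rccd1 fall outside it and were named after their values were seen. So were the markers Krt8, Cd68, Col1a1, Col3a1, Dcn, Pdgfra and Pdgfrb. Exon overlaps and lengths are from GENCODE M21, to which 12570 of 12578 gene IDs matched. Promoter windows are from RefSeq. No protein table was used here, and some of the members' direct partners are not reported here. Alternatives are given in the closing section.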

Additional observations from a re-analysis of the deposited data

How the results depend on the processing

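The 9 members gave 114 values under the alternatives, and 108 kept their direction with no call made. For 3 of them (Irf2, Irf3 and Ifngr2 in the authors' deposited table) no adjusted p is given, so only the direction was compared. Irf1 was the only member called under any of them (limma, adjusted p = 0.035 without DMSO B; 0.080 to 1.00 under its others; the lone DMSO library is assumed to vary like the rest), so the number of members called higher was 0 to 1 when 1 library was left out. Leaving out 1 library turned the direction of 4 members, none of them called: the log2 fold change ranged from -0.26 to 0.47 for Ifngr2, from -0.75 to 0.047 for Irf2, from -0.17 to 0.032 for Irf9 and from -0.043 to 0.38 for Stat2. No pseudocount, scaling, abundance minimum or block turned a direction or made a call among members. At a minimum base mean of 40, Irf2, Irf3 and Ifngr2 dropped out and gave no value.

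Over all genes, 111 were higher and 72 lower. With no abundance minimum the counts were 12 and 4, 16 and 10 passed in the authors' deposited table (DESeq2), and with voom scaled by library size only 71 were higher. Leaving out 1 library gave 42 to 178 higher and 21 to 76 lower. Of the targets 3 were called higher, but 1 with no abundance minimum and 1 in the authors' deposited table, and 1 to 4 when 1 library was left out (Psmb10 joined without DMSO B, and Gbp2 alone was left without inhibitor B). With the column letter as a replicate block, 133 genes were higher and 94 lower and no member was called. The letters are not shown to pair libraries (correlation of same-letter deviations 0.085 across 8562 genes). The cause of these shifts was not tested. At 12 to 37 reads per library in Ifngr2, Irf2 and Irf3, depth limits what can be seen.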
